A study of Homo sapiens with 4 samples.

Results

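LN-OlapR, an olaparib-resistant derivative of the LNCaP prostate cancer cell line, was compared with the parental LNCaP line over the whole measured transcriptome. Of the 22637 genes in the deposited table, 15373 averaged 1 or more normalized CPM (counts scaled for library size) over the 2 libraries and were analyzed. The comparison used 2 of the 4 libraries of the series. C4-2B, a castration-resistant line of LNCaP lineage, and its olaparib-resistant derivative 2B-OlapR gave the other 2 and are quoted beside the LN pair. Values of a pair are given with the parental line first.

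LNCaP is an established human line of prostatic adenocarcinoma whose growth responds to androgen, and it served here as the untreated parental phenotype. LN-OlapR was derived from it by culture in stepwise higher olaparib over a long period, and was kept in the drug between experiments. Its library is labelled olaparib-resistant and untreated, so the 2 libraries are read as a comparison of cell lines. The study's methods do not say outright whether the plating medium of LN-OlapR held olaparib. Recent exposure to the drug or its withdrawal therefore cannot be told apart from a lasting difference between the lines. Both are labelled prostatic adenocarcinoma. The labels give 48 h between plating and RNA isolation, and the study's methods give a longer time. Each line was sequenced as 1 library, and no second resistant derivation of LNCaP was analyzed. Differences between the lines therefore could not be checked against replicates or tested.

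Olaparib blocks the poly(ADP-ribose) polymerases PARP1 and PARP2 and traps them on DNA, which is most toxic to cells with defective homologous recombination. Cells selected to survive such inhibitors are known to differ from their parents in drug export, repair capacity, replication fork protection or cell state. In luminal prostate cancer cells, much of the cell state is set by androgen signaling, in which a steroid-activated transcription factor works with FOXA1, HOXB13 and a large group of coregulators. The classical targets are secreted kallikreins such as KLK3, the prostate-specific antigen. The UGT2B glucuronosyltransferases, some of which inactivate androgens, include members that are repressed by androgens.

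LNCaP is known to resemble luminal prostate cells. All 15 luminal prostate markers were listed in the table, and their summed level was 4629 and 7877 normalized CPM in the LN pair and 6354 and 5382 in the 2B pair. KLK3 took 53.1 and 2685 of the sums in the LN pair. The basal markers summed to 51.7 and 40.7 in the LN pair, and TP63, KRT5, KRT15 and KRT17 were not among the 7 of 13 listed. Neuroendocrine markers summed to 32.4 and 31.0 with 7 of 22 listed, and of the listed ones NCAM1 had 4 and 12 counts. The sum hides opposite directions. Of the 4 neuroendocrine markers analyzed, UCHL1 had a log2 ratio of LN-OlapR to LNCaP of 2.17 and ENO2 of -1.07. Fibroblast and smooth muscle markers, with 8 of 13 listed, summed to 29.2 and 25.6. Of these, COL1A1 had 15.2 and 8.23 CPM and ACTA2 had 4.65 and 9.09, while FAP was at 0 in both libraries. Endothelial markers summed to 8.41 and 5.02 with 2 of 8 listed, and leukocyte markers to 1.38 and 5.79 with 5 of 11 listed. CD68, a lysosomal glycoprotein abundant in macrophages, gave most of the last sum in LN-OlapR, with 11 counts in LNCaP and 120 in LN-OlapR, while CSF1R had 0 and 2 counts and PTPRC was not listed. Estimated counts summed to between 19950537 and 26394267 per library, and the 10 genes with the most counts took between 6.02% and 10.6% of them.

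The lines differed by at least 2-fold at a small part of the transcriptome. In LN-OlapR, 713 genes (4.64%) stood at 2-fold or more above LNCaP and 742 (4.83%) at 2-fold or more below, and the median log2 ratio over all 15373 genes was -0.004. The central part of the distribution was narrow, with quartiles at -0.27 and 0.26 and the 5th and 95th percentiles at -0.97 and 0.94. The tails were long: 4-fold was reached by 219 genes upward and 225 downward, and 16-fold by 57 and 81. Genes past 2-fold are called changed, in the sense of size alone. The interval given with each ratio is a 95% interval from the counts of the 2 libraries. It covers counting error and not the variation between cultures. Its whole range lay past 2-fold for 404 higher and 412 lower genes.

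Many of the 2-fold differences were at genes with few counts. Among 5230 genes with a mean of 1 to 10 CPM, 9.89% were higher and 10.5% lower. Among 8007 genes at 10 to 100 CPM the shares were 2.01% and 2.19%, and among 2136 genes from 100 CPM upwards they were 1.64% and 0.796%. Over all 10143 genes from a mean of 10 CPM upwards, 1.93% were higher and 1.89% lower. Of 12131 protein-coding genes, 4.43% were higher and 4.37% lower. Of 1630 noncoding RNA genes these shares were 6.99% and 7.98%. Among the changed genes, 188 of 1455 had no symbol and are not named.

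**Figure D1:**
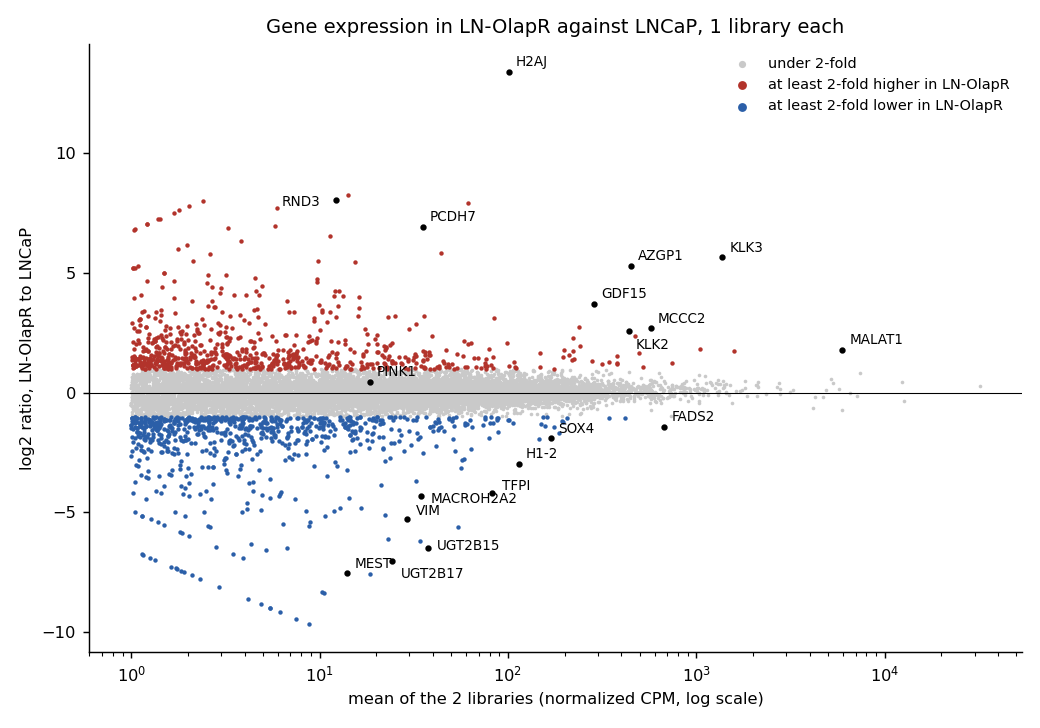
Log2 ratio of LN-OlapR to LNCaP (vertical axis) against the mean normalized CPM of both libraries (horizontal, log scale) for the 15373 genes analyzed, with genes at least 2-fold higher in red and lower in blue. The spread is widest at low levels, KLK3, AZGP1 and GDF15 stand above 3 on the log2 scale at high levels, and genes at 0 counts in 1 library are placed by the pseudocount, so their height is not a measured fold.

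The changed genes were then set beside the 2B pair, which shares no library with the LN pair. In the 2B pair, 3.41% of 14602 genes analyzed in both pairs passed 2-fold upward in the resistant line and 5.12% downward. Of the 582 genes higher in LN-OlapR among them, 122 (21.0%) were also higher in 2B-OlapR and 63 (10.8%) were lower. Of the 586 lower in LN-OlapR, 159 (27.1%) were also lower in 2B-OlapR and 61 (10.4%) were higher. Counted from the 2B side, the 122 shared higher genes were 24.5% of the genes higher in 2B-OlapR, and the 159 shared lower genes were 21.3% of those lower. Most changed genes of the LN pair were therefore under 2-fold in the 2B pair, and these shares were not tested.

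The genes with the largest differences, at mean levels from 10 CPM upwards, included receptors and adhesion molecules on the higher side and UGT2B enzymes and X-linked tumor antigens on the lower side. H2AJ, a replication-independent variant of histone H2A at positions 14774383 to 14778002 of chromosome 12, had 0 counts in LNCaP and 4712 in LN-OlapR. Its level in LN-OlapR, 202 CPM, was near the 228 of C4-2B and the 205 of 2B-OlapR. LNCaP was thus the single library without H2AJ. Taking 3 counts, here 0.112 CPM, as the most that 0 observed counts allow, the difference was at least 1810-fold.

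PCDH7, a protocadherin of the cell surface, had 15 and 1634 counts in the LN pair and 1146 and 445 in the 2B pair. TM4SF1, a small membrane protein related to tetraspanins, had 40 and 2032 counts against 1765 and 545. In these genes LNCaP was low and the remaining libraries were all high. CADPS2, which primes dense-core vesicles for release, was also lowest in LNCaP, with 18 and 703 counts in the LN pair and 1192 and 727 in the 2B pair, and so was RTN4RL1, a Nogo receptor relative, with 68, 694, 669 and 833.

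A second group was higher in both resistant lines. RND3, an atypical small GTPase that lowers actomyosin contractility, had 2 and 568 counts in the LN pair, and 135 and 1062 in the 2B pair. S1PR3, a receptor for sphingosine-1-phosphate, had 1.49 and 25 CPM in the LN pair and 15.8 and 147 in the 2B pair. TNS1, a focal adhesion protein that binds integrin tails, went from 1.34 to 22.5 CPM and from 2.59 to 24.6 CPM. LRG1, a secreted glycoprotein, had 1.86 and 23.1 CPM beside 18.5 and 57.2. HMX1, a homeobox factor, had 1 and 275 counts in the LN pair and 8 and 281 in the 2B pair. For these 5 genes the resistant line was higher in both backgrounds.

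Other genes had their highest level of the 4 libraries in LN-OlapR. PRXL2A, a peroxiredoxin-like protein, had 6 and 523 counts in the LN pair and 2 and 0 in the 2B pair. PEG10, an imprinted gene of retrotransposon origin, had 32 counts in LNCaP and 533 in LN-OlapR beside 22 and 42. AZGP1, a secreted zinc-binding glycoprotein of prostate epithelium, had 22.3 and 878 CPM in the LN pair and 172 and 91.1 in the 2B pair. GDF15, a stress-responsive cytokine of the TGF-beta family, stood at 40.7, 532, 119 and 27.2 CPM. LN-OlapR was the highest library for all 4 genes, with log2 ratios to LNCaP of 6.54 for PRXL2A, 4.24 for PEG10, 5.30 for AZGP1 and 3.71 for GDF15 (counting interval 3.62 to 3.79).

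On the lower side, XAGE1A and PAGE1, X-linked antigens normally confined to the germ line, had 566 and 550 counts in LNCaP and 1 each in LN-OlapR. Both were well counted in the 2B pair, with 180 and 748 counts for XAGE1A and 3248 and 3309 for PAGE1. MEST, an imprinted gene at positions 130486171 to 130506465 of chromosome 7, had 754 counts in LNCaP and 3 in LN-OlapR, and 2189 and 1192 in the 2B pair. For these 3 genes LN-OlapR was the single library at or under 3 counts. ANKRD29, an ankyrin repeat protein, was close to that pattern with 995, 4, 616 and 399 counts.

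The remaining genes at the low end were lower in both resistant lines or high in LNCaP alone. VIM, the intermediate filament protein vimentin, had 57 and 1.46 CPM in the LN pair and 41.8 and 9.41 in the 2B pair. LIN7A, a scaffold of cell polarity complexes, had 106, 2.14, 73.0 and 32.1 CPM, and RALYL, an RNA-binding protein, had 20.7, 0.557, 10.8 and 0.145. CDH26, a cadherin, had 23.1, 0.729, 4.40 and 0.241 CPM. In these 4 genes the resistant line was lower in each pair. TMEFF2, a prostate transmembrane protein, had 1811 and 21 counts in the LN pair and 3 and 0 in the 2B pair, so that LNCaP was alone in expressing it strongly. BCHE, butyrylcholinesterase, and MAN1A1, a Golgi mannosidase, had 24.9 and 31.9 CPM in LNCaP and 0.857 and 1.11 in LN-OlapR, and PRRT1B had 43.0 and 1.24.

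Genes with no more than 3 counts in 1 library of the pair and at least 10 CPM in the other numbered 15, of which 5 were present in LN-OlapR and 10 in LNCaP. CCDC74A, a coiled-coil protein of chromosome 2, had 472 counts in LNCaP and 0 in LN-OlapR and was at least 137-fold lower. CPLANE1, a ciliogenesis protein, and PARVA, a focal adhesion protein that binds integrin-linked kinase, went from 330 and 294 counts to 0, at least 95.4-fold and 85.0-fold lower. Both were present in the 2B pair, with 160 and 247 counts for CPLANE1 and 381 and 638 for PARVA. ECHDC1, a metabolite-repair enzyme, and RFX6, a transcription factor, had 278 and 358 counts in LNCaP and no more than 3 in each of the other libraries. COL12A1, a collagen of the fibril surface, had 2 and 268 counts in the LN pair and 0 and 48 in the 2B pair. Its ratio of 154 had a counting interval of 42.3 to 1280.

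**Figure D2:**
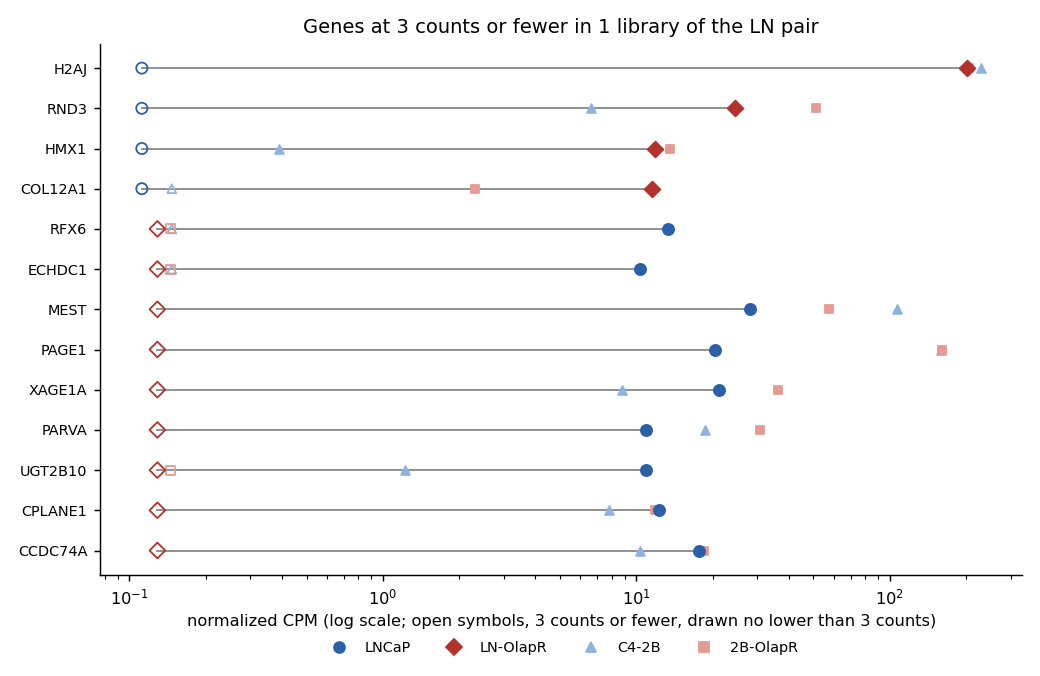
Normalized CPM (log scale) in the 4 libraries of 13 of the 15 genes that had at most 3 counts in 1 library of the LN pair and at least 10 CPM in the other, 1 symbol per library, with open symbols at the level of 3 counts. H2AJ, RND3 and HMX1 are at 3 counts or fewer in LNCaP alone, MEST, PAGE1, XAGE1A, PARVA, CPLANE1 and CCDC74A in LN-OlapR alone, and RFX6 and ECHDC1 are present in LNCaP alone.

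The androgen program was then examined, since the growth of LNCaP depends on it. Of 34 androgen-induced genes analyzed, 12 were at least 2-fold higher in LN-OlapR (35.3%, beside 4.64% of all genes) and 4 at least 2-fold lower (11.8%, beside 4.83%). These shares over all genes are the background for every list that follows. They are not matched for level, and genes with few counts passed 2-fold more often, as given above. The median log2 ratio was 0.48, with an interval of -0.14 to 1.28 over the genes of the list, and 22 were above 0. Of 12 androgen-repressed genes, 1 was higher and 6 were lower, with a median of -0.98 (interval -5.00 to 0.74). The first list thus leaned upward and the second downward, though each held members of the opposite direction.

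KLK3 and KLK2 are neighbouring kallikrein genes, and their promoters are shown because both genes were higher in LN-OlapR and the same androgen response motif was found in each. The sequences are those of RefSeq on GRCh38.p14, plus strand, chr19:50854665-50854964 for KLK3 and chr19:50873189-50873488 for KLK2, from 250 bases before to 50 bases after the start. Capitals mark the match to the androgen response element GAACANNNNGTNCT, which was searched on both strands (reverse complement AGNACNNNNTGTTC).
KLK3: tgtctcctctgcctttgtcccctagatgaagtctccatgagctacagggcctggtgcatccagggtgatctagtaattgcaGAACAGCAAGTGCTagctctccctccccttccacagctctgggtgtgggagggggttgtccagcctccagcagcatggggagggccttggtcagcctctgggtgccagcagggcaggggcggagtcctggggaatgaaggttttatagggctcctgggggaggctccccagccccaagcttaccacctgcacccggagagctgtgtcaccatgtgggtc
KLK2: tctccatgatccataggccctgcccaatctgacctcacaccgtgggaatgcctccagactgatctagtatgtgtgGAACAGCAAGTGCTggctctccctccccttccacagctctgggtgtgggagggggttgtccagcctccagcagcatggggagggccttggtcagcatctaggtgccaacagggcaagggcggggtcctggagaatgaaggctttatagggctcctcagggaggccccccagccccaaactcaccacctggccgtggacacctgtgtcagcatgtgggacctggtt

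The match began at -169 from the start in KLK3 and at -175 in KLK2 and was the same 14-letter run, GAACAGCAAGTGCT, in both. Over 287 aligned columns the promoters were 87.5% identical. The motif was found in 73 of 27305 promoters of this length (0.267%) and in 11 of 10538 promoters of analyzed genes (0.104%). Of promoters of androgen-induced genes, 2 of 24 held it (8.33%), which were KLK3 and KLK2. Both are shown because they held the motif, so this share cannot show enrichment and was not tested. The motif was present in 2 of 446 promoters of higher genes (0.448%), again KLK3 and KLK2, and in 1 of 480 of lower genes (0.208%). The shorter half-site AGAACA (reverse complement TGTTCT) was found in 14.9% of all promoters and 8.70% of those of analyzed genes, and in 13.0% of higher and 11.2% of lower genes. A match describes letters in this window and not binding.

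KLK3 lies at positions 50854915 to 50860764 of chromosome 19 and had 53.1 and 2685 CPM in the LN pair and 2412 and 1870 in the 2B pair. The log2 ratio in the LN pair was 5.66 (counting interval 5.58 to 5.73), a 50.5-fold difference. LNCaP was the low library, and the other libraries lay close together. KLK2 had 126 and 748 CPM in the LN pair and 247 and 233 in the 2B pair, with a log2 ratio of 2.56 (2.51 to 2.62). KLK4, another kallikrein, had 158 and 233 CPM and stayed under 2-fold. As KLK2 and KLK3 are similar in sequence, reads shared between them may have been divided by the authors' counting.

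Other classical targets were higher by smaller amounts. TMPRSS2, a serine protease of the luminal surface, had 200 CPM in LNCaP and 485 in LN-OlapR, and FKBP5, a cochaperone of steroid receptors, had 194 and 441. PMEPA1, an inhibitor of TGF-beta signaling, had 103 and 291 CPM, NDRG1 had 123 and 325, and TSC22D3, a glucocorticoid- and androgen-induced leucine zipper protein, had 37.7 and 160. TRPM8, a cold-sensing calcium channel of prostate epithelium, had 10 and 34.7 CPM. CENPN, a centromere protein, and HERC3, a ubiquitin ligase, had log2 ratios of 1.94 and 1.37. All 8 of these genes were higher in LN-OlapR. In the 2B pair FKBP5 had 391 and 257 CPM, PMEPA1 392 and 368, and CENPN 513 and 341. LNCaP was the lowest of the libraries for each of them. TMPRSS2, with 130 and 263 CPM, was higher in 2B-OlapR as well. Over the 33 androgen-induced genes analyzed in the 2B pair the median log2 ratio was -0.21 (interval -0.60 to 0.02), with 11 above 0 and 22 below. STEAP4 and SGK1, which completed the 12, had under 10 CPM in both libraries.

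The same list held genes that were lower or level. HPGD, which degrades prostaglandins, had 684 counts in LNCaP and 63 in LN-OlapR, and 3 and 2 in the 2B pair. RHOU, another small GTPase, had 150 and 63.1 CPM, and ADAMTS1, a secreted protease, had 278 and 134. TARP, transcribed within the T-cell receptor gamma locus, had 30.4 and 7.55 CPM and may share reads with that locus. SLC45A3, a sugar transporter of prostate cells, had 380 and 485 CPM. Thus the kallikreins and SLC45A3, which are all androgen targets, did not move by the same amount.

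**Figure D3:**
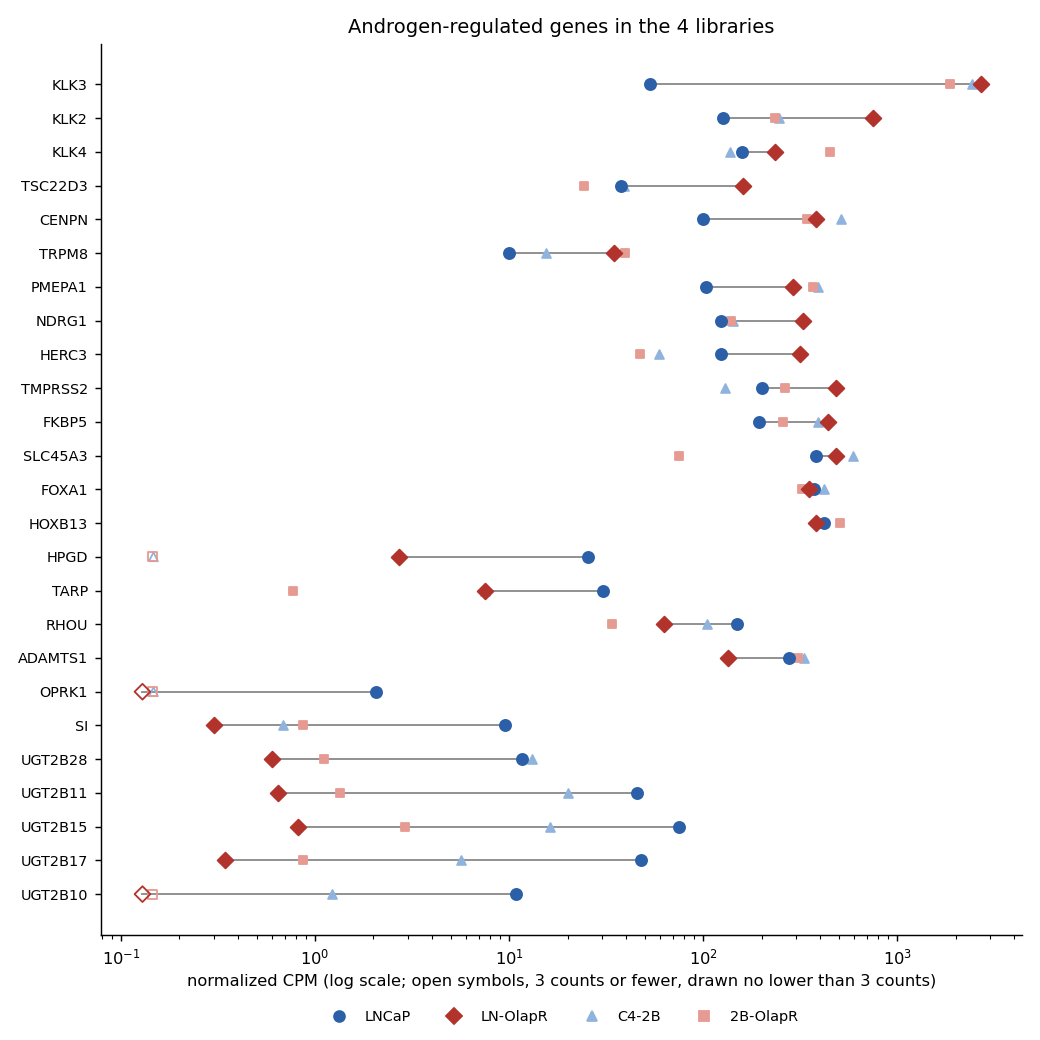
Normalized CPM (log scale) of androgen-regulated genes, FOXA1 and HOXB13 in the 4 libraries, with a line joining LNCaP (blue circle) to LN-OlapR (red diamond) and open symbols for 3 counts or fewer. KLK3 spans the widest upward interval, FOXA1 and HOXB13 lie within 0.14 on the log2 scale, and the UGT2B genes at the bottom lie at 0.815 CPM or lower in LN-OlapR.

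FOXA1 and HOXB13, which open chromatin for androgen signaling, differed little, with log2 ratios of -0.09 and -0.14. GRHL2, an epithelial transcription factor, stood at 0.58, and NCOR1, a corepressor of nuclear receptors, at -0.54 with 261 and 180 CPM. All 4 were under 2-fold, beside target genes with ratios of several-fold.

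The UGT2B genes differed in 1 direction. They encode enzymes that attach glucuronic acid to their substrates, which for some members, but not all, are dihydrotestosterone and its metabolites. The genes lie on chromosome 4, the 6 changed members between positions 68537184 and 69526014. UGT2B15 had 2007 and 19 counts in the LN pair, and 334 and 60 in the 2B pair. UGT2B17 had 1287 and 8 counts in the LN pair and 116 and 18 in the 2B pair, and UGT2B11 had 1227 and 15 against 414 and 28. UGT2B10 had 294 and 0 counts and was at least 85.0-fold lower, and UGT2B28 and UGT2B4 had 315 and 14, and 60 and 1. All 6 were at least 2-fold lower in LN-OlapR, and the 5 with over 3 counts in C4-2B were also lower in 2B-OlapR. The members are close paralogs, so reads may have been divided among them. Of the 17 steroid metabolism enzymes analyzed these were the 6 lower ones, and CYP11A1, the side-chain cleavage enzyme that starts steroid synthesis, was the 1 higher, with 14 and 42 counts. The other androgen-repressed genes at least 2-fold lower were SI, OPRK1 and SERPINI1, with 256 and 7, 55 and 1, and 103 and 44 counts, and DDC, an enzyme of dopamine synthesis, was higher with 97 and 192.

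**Figure D4:**
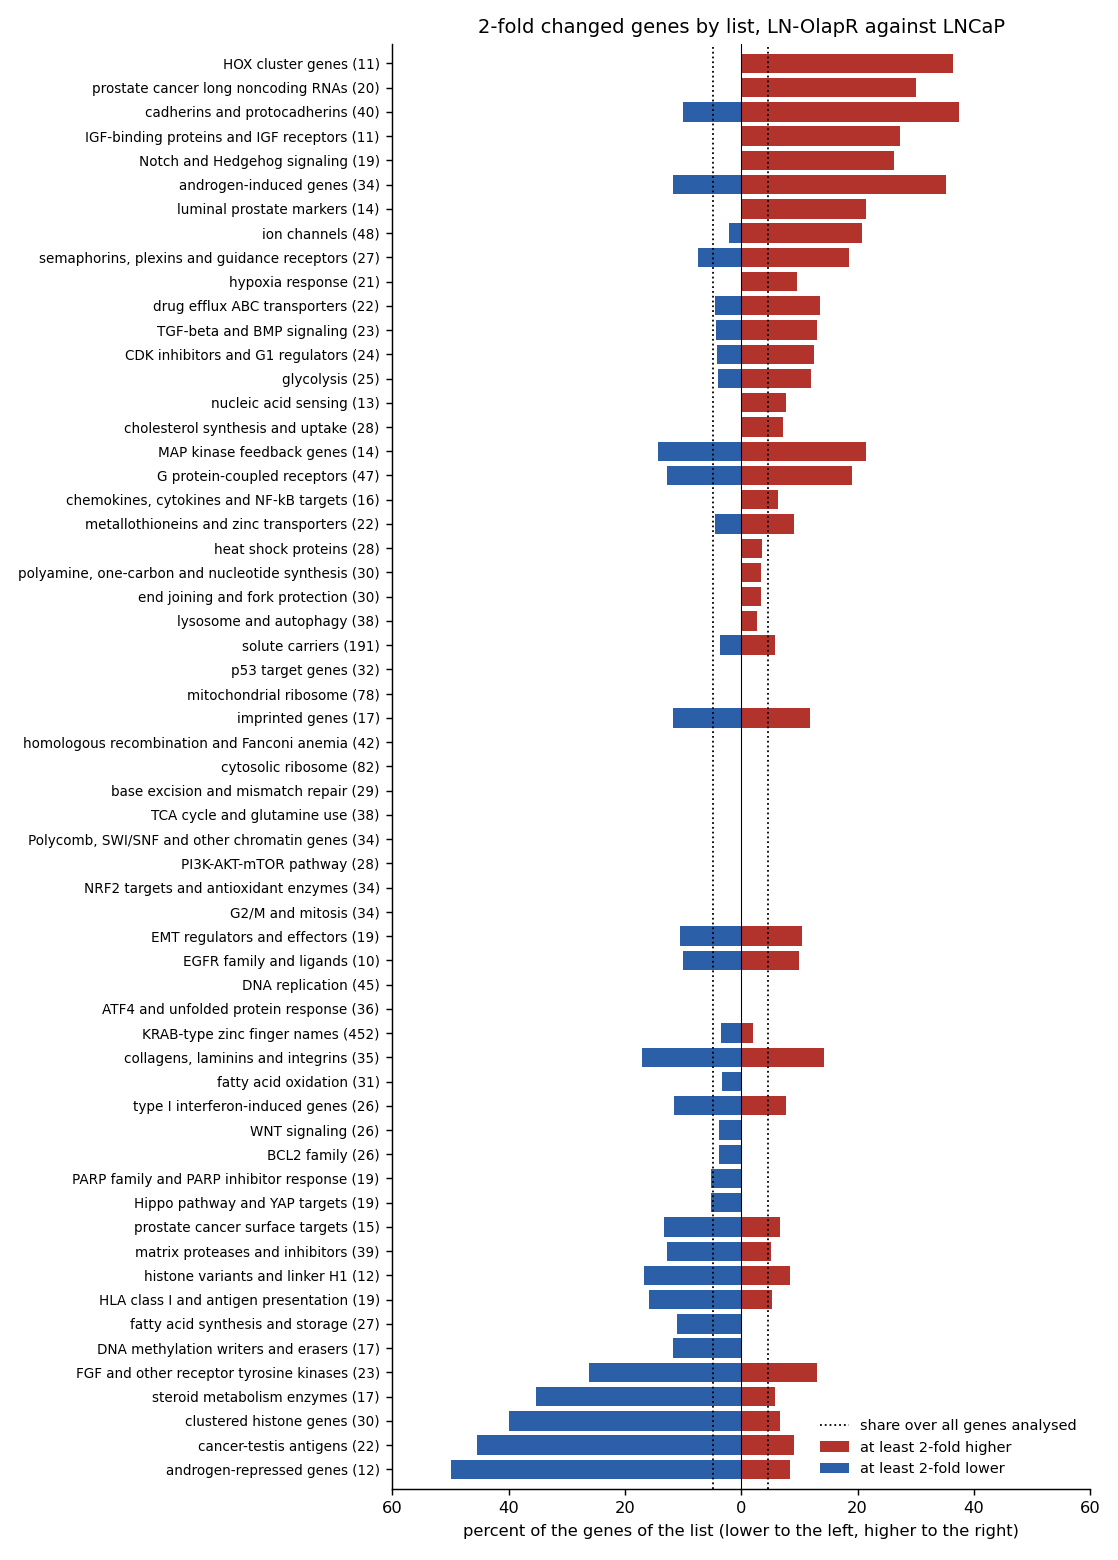
Share of genes at least 2-fold higher (red, to the right) and lower (blue, to the left) in LN-OlapR for lists with at least 10 genes analyzed, their number in brackets, lists in order of the higher share minus the lower share, and dotted lines at the shares over all genes (4.64% and 4.83%). HOX genes, cadherins and androgen-induced genes stand out to the right, androgen-repressed genes, cancer-testis antigens and clustered histones to the left, and the homologous recombination, replication and ribosome lists have no bar.

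Genes on which the action of olaparib depends differed little. PARP1, the main target, had 583 CPM in LNCaP and 573 in LN-OlapR, a log2 ratio of -0.02 (-0.06 to 0.01). Of 19 genes of the PARP family and of PARP inhibitor response, 0 were at least 2-fold higher and 1 was lower, with a median of -0.13. That gene was PARP14, a mono-ADP-ribosyltransferase induced by interferon, with 76 and 13 counts in the LN pair and 248 and 141 in the 2B pair. PARP11, a nuclear pore enzyme, was the highest at 0.82. PARG, which removes poly(ADP-ribose), had 44.3 and 37.0 CPM.

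Of 42 homologous recombination and Fanconi anemia genes, 0 passed 2-fold, 28 were below 0, and the median was -0.13 (interval over genes -0.22 to -0.02). BRCA1 had 75.9 CPM in LNCaP and 87.9 in LN-OlapR, and BRCA2 had 33.0 and 28.6. The extremes were XRCC2 at 0.66 and RAD54B at -0.52. Of 30 end joining and fork protection genes, RADX, an RPA-like protein of stalled forks, was the 1 at least 2-fold higher, with 17 and 34 counts, and 0 were lower. TP53BP1, which favours end joining, had 61.2 and 74.5 CPM, and SHLD2 of the shieldin complex had 51.1 and 36.0. Of 29 base excision and mismatch repair genes, 0 passed 2-fold, with MBD4 highest at 0.68 and NEIL3 lowest at -0.74. RADX was thus the 1 gene of these 3 repair lists past 2-fold, where the shares over all genes were 4.64% and 4.83%.

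Drug efflux genes, which can carry PARP inhibitors out of cells, were mixed. Of 22 ABC transporter genes analyzed, 3 were higher (13.6%, beside 4.64%) and 1 was lower (4.55%, beside 4.83%), with a median of 0.12. ABCC5, a nucleotide exporter, had 34.5 and 69.5 CPM. ABCC8, a subunit of potassium channels, had 38 and 85 counts, and ABCB11, the bile salt pump, had 53 and 5. ABCC1, a broad drug exporter, had 203 CPM in LNCaP and 382 in LN-OlapR, a log2 ratio of 0.91. ABCB1, the exporter best known for PARP inhibitors, was not listed.

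Replication and mitosis genes stayed under 2-fold. Of 45 DNA replication genes 0 passed 2-fold, the median was 0.02, and CDC45, a helicase subunit, was the lowest at -0.77 with 42.7 and 25 CPM. Of 34 G2/M and mitosis genes 0 passed 2-fold, 25 were below 0, and the median was -0.12 (interval over genes -0.23 to -0.04). MKI67, the proliferation antigen, had 399 and 369 CPM. Among 24 genes of CDK inhibition and the G1 phase, CDK6 was higher with 98 and 267 counts, CDKN2B with 25 and 58, and RB1, the retinoblastoma repressor of E2F, with 28.0 and 57.6 CPM. CDKN1C was lower with 41 and 12 counts. In the 2B pair CDK6 had 153 and 55 counts, the opposite direction.

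Clustered histone genes were mostly lower in LN-OlapR. Of 30 histone genes named as cluster members, 12 were at least 2-fold lower in LN-OlapR (40.0%, beside 4.83%) and 2 higher, with a median of -0.55 (interval -1.12 to -0.29). H1-2, a linker histone, had 202 and 25.9 CPM in the LN pair and 223 and 129 in the 2B pair. H2BC12 had 86.2 and 34.6 CPM in the LN pair, and H4C14 had 28.6 and 13.2. Each was lower in LN-OlapR while the 2B pair moved by less. H4C16 was higher with 1 and 47 counts. Replication-dependent histone mRNAs mostly lack a poly(A) tail and the library kit selects for one, so these values describe the polyadenylated share, and replication genes were level as given above.

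Among 12 histone variants and linker histones, H2AJ was the 1 higher gene and 2 were lower, among them MACROH2A2. MACROH2A2, a repressive macroH2A variant at positions 70052796 to 70112280 of chromosome 10, had 1779 and 77 counts in the LN pair and 178 and 9 in the 2B pair. It was lower in both resistant lines, with log2 ratios of -4.32 (-4.64 to -3.99) in the LN pair and -4.25 in the 2B pair. DNMT3A, a de novo DNA methyltransferase, was lower in both pairs as well, with 63.1 and 22.8 CPM and 26.6 and 10.2 CPM. TET1, which oxidizes methylcytosine, had 143 and 61 counts beside 114 and 17. They were the 2 changed genes of 17 DNA methylation writers and erasers. In contrast, 0 of 34 Polycomb, SWI/SNF and other chromatin genes passed 2-fold, between SMARCA2 at 0.85 and HDAC4 at -0.64.

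Germ-line, imprinted and HOX genes are expressed according to chromatin state, and several were all or none. Of 22 cancer-testis antigen genes analyzed, 10 were at least 2-fold lower in LN-OlapR (45.5%, beside 4.83%) and 2 higher, with a median of -0.18. GAGE2A had 263 counts in LNCaP and 0 in LN-OlapR, MAGEA4 had 99 and 0, SSX2B had 72 and 0, and MAGEC2 had 139 and 2. MAGEA1 had 69 and 3 counts in the LN pair and 2896 and 2072 in the 2B pair, so both LN libraries lay far below the 2B pair. GAGE2E, a near-copy of GAGE2A, had 263 and 56 counts. The GAGE and XAGE1 copies are almost identical, and single copies are uncertain. CTAGE4 and CTAGE15 were the higher members, with 306 and 601 and with 71 and 152 counts.

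Of 11 HOX genes analyzed, 4 were at least 2-fold higher (36.4%, beside 4.64%) and 0 lower. HOXB9 had 49 counts in LNCaP and 219 in LN-OlapR, HOXC12 had 217 and 638, HOXC10 had 50 and 130, and HOXA5 had 24 and 52. Among 17 imprinted genes, PEG10 and IGF2 were higher and MEST and CDKN1C lower. Zinc finger genes with the ZNF name numbered 452 and had a median of -0.14, with 9 higher and 16 lower and 295 below 0. ZNF516 had 2 counts in LNCaP and 177 in LN-OlapR, and ZNF454 had 108 and 1. ZNF629 and ZNF704, at 28.6 and 7.20 CPM and 23.7 and 6.26 CPM, were lower.

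Receptor and growth factor genes changed in both directions. Of 23 FGF and other receptor tyrosine kinase genes, 6 were at least 2-fold lower (26.1%, beside 4.83%) and 3 higher (13.0%, beside 4.64%). EPHA3, an ephrin receptor, had 102 and 15 CPM in the LN pair and 97.5 and 21.0 in the 2B pair. EPHA7 had 17.4 and 4.76 CPM in the LN pair, EPHB2 had 19 and 7.59, and FGFR1 had 21.0 and 7.29. These 4 receptors were lower in the resistant line of both pairs, EPHB2 by under 2-fold in the 2B pair. FGF13, an intracellular FGF that binds sodium channels, was higher in both resistant lines with 7 and 133 counts and 15 and 164. Among 10 EGFR family members and ligands, EGF was higher with 159 and 335 counts and TGFA lower with 70 and 12. EGFR had 74.4 and 103 CPM, a log2 ratio of 0.46.

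Of 11 genes of the insulin-like growth factor (IGF) group, 3 were at least 2-fold higher (27.3%, beside 4.64%) and 0 lower, with a median of 0.88 (interval -0.14 to 2.12). IGFBP3, a secreted IGF carrier, had 5.06 and 13.2 CPM in the LN pair and 6.35 and 92.3 in the 2B pair. IGFBP5 had 15 and 73 counts and IGF2 10 and 39. IGF1R, the signaling receptor, had 120 and 221 CPM, and IGFBP2 had 72.6 and 141. IGF2R, which clears IGF2, was the lowest with 742 and 556 CPM.

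In the TGF-beta and BMP group, 3 of 23 genes were higher and 1 was lower. INHBB, an activin subunit, had 75 and 403 counts in the LN pair and 289 and 236 in the 2B pair, and stood beside GDF15 on the higher side. SMAD9 had 14.8 and 30.9 CPM, and BMP6 was lower with 320 and 101 counts. Of 19 Notch and Hedgehog genes 5 were higher (26.3%, beside 4.64%) and 0 lower, with a median of 0.34 (0.07 to 1.13). HES1, a Notch target repressor, had 150 and 706 counts, and 492 and 1445 in the 2B pair. PTCH1, the Hedgehog receptor and pathway target, had 19.7 and 51.1 CPM, and SMO, which it restrains, had 159 and 439 counts. SMO was lower in 2B-OlapR with 1244 and 236 counts. NOTCH1 had 42.7 and 78.4 CPM and NOTCH2, the lowest of the list, 114 and 76.1.

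Of 28 PI3K-AKT-mTOR genes 0 passed it. AXIN2, a feedback target of WNT, was the 1 changed gene of 26 in its list with 340 and 107 counts, and AMOTL2, a YAP regulator, the 1 of 19 in the Hippo list with 74 and 27. Of 14 MAP kinase feedback genes 3 were higher (21.4%, beside 4.64%), namely SPRY4, FOSB and FOSL2, and 2 lower (14.3%, beside 4.83%), namely PHLDA1 and DUSP5. FOSL2, an AP-1 subunit, was higher in both resistant lines, from 547 to 1272 and from 413 to 1301 counts. PHLDA1 was lower in both, from 1277 to 202 and from 1457 to 319.

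Ion channels and G protein-coupled receptors held larger shares of higher genes than the transcriptome as a whole. Of 48 ion channel genes 10 were at least 2-fold higher (20.8%, beside 4.64%) and 1 lower. CACNA1H, a low-voltage calcium channel, had 188 counts in LNCaP and 1519 in LN-OlapR but 19 and 3 in the 2B pair. TRPV6, an epithelial calcium channel, had 16.0 and 48.4 CPM, TRPM4 had 63.8 and 140, and KCNH8 had 1 and 92 counts. CACNG4 was lower with 135 and 2 counts. Of 47 receptor genes 9 were higher (19.1%, beside 4.64%) and 6 lower (12.8%, beside 4.83%). The lists were not matched for level, and over genes with a mean of 1 to 10 CPM the shares were 9.89% and 10.5%. ADRA2A, an alpha-2 adrenergic receptor, had 48 and 442 counts, and ADGRG6, an adhesion receptor, had 89.2 and 306 CPM. GPR176 and GPR161 were lower, with 30.8 and 12.8 CPM and 18.9 and 9.17 CPM.

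The adhesion genes with the most changes were cadherins and protocadherins. Of 40 analyzed, 15 were at least 2-fold higher (37.5%, beside 4.64%) and 4 lower, with a median of 0.80 (interval 0.20 to 1.01). Over the members from a mean of 10 CPM upwards the median was 0.06. The genes of the clustered protocadherins on chromosome 5 supplied 11 of the 15, namely PCDHB2, PCDHB5, PCDHB6, PCDHB11, PCDHB13, PCDHB14, PCDHGA1, PCDHGA7, PCDHGA11, PCDHGB5 and PCDHGC3. PCDHB5 had 192 counts in LNCaP and 677 in LN-OlapR and 1 and 2 in the 2B pair, and PCDHB2 had 96 and 297 against 9 and 1. At these 2 genes LN-OlapR was the highest library, and C4-2B and 2B-OlapR hardly expressed them. PCDHGA8 and PCDHGA2 of the same cluster were lower in LN-OlapR, with 131 and 33 and with 45 and 12 counts. The PCDHG genes share their last exons, so their counts are not independent. CELSR2, a seven-pass cadherin, was lower with 83.7 and 35.3 CPM. CDH1, epithelial cadherin, had 572 and 544.

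Matrix genes were found in both directions. Of 35 collagen, laminin and integrin genes 5 were higher (14.3%, beside 4.64%) and 6 lower (17.1%, beside 4.83%). COL5A1 had 23 and 166 counts and COL4A6 63 and 296, while LAMB2, a basement membrane laminin, had 134 and 42.9 CPM. ITGA5, the fibronectin receptor subunit, was lower with 27.8 and 12.1 CPM, and FN1, fibronectin itself, was higher with 161 and 401. Of the 19 genes of epithelial-mesenchymal transition, SNAI2 and FN1 were higher and VIM and SNAI3 lower, with a median of 0.00. SNAI2, a repressor of epithelial genes, had 86 and 193 counts. Among matrix proteases MMP16 had 44.1 and 21.9 CPM, and ADAM23 had 136 and 8 counts.

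Of 27 semaphorin, plexin and guidance receptor genes, 5 were higher (18.5%, beside 4.64%) and 2 lower (7.41%, beside 4.83%). SEMA3C, a secreted semaphorin, had 498 and 1271 counts in the LN pair and 321 and 1505 in the 2B pair. SEMA6D had 0 and 57 counts beside 8 and 1574, and UNC5A, a netrin receptor, had 19 and 159. SEMA6A was lower with 39.5 and 2.74 CPM. Of 15 surface targets of prostate cancer therapy, 2 were lower. CD24 was lower with 27.5 and 1.29 CPM, and ALCAM with 21.9 and 9.17. FOLH1, the prostate-specific membrane antigen, had 735 CPM in both libraries.

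Stress and death genes were mostly under 2-fold. Of the 32 genes in the list of p53 targets 0 passed it, 28 were above 0 and the median was 0.29 (0.14 to 0.52). GDF15, the stress-responsive cytokine at 3.71, was counted in the TGF-beta and BMP list and not in this one, so the 0 holds for the list as drawn up. BTG2 had 42.2 and 79.0 CPM, CDKN1A, the p21 cell cycle inhibitor, had 76.1 and 142, and BBC3 had 126 and 174 counts. In the 2B pair, CDKN1A had 77.8 and 18.6 CPM. Of 34 NRF2 target and antioxidant genes, and of 36 ATF4 and unfolded protein response genes, 0 passed 2-fold, with NQO1 highest of the former at 0.80 and DDIT3 of the latter at 0.87. The median of 28 heat shock genes was 0.29. HSPA1A had 0 and 66 counts and shares nearly all of its sequence with HSPA1B. BMF, a BH3-only protein that promotes apoptosis, was the 1 changed gene of 26 in the BCL2 family, with 15.9 and 4.59 CPM. MT1X, a metallothionein, had 70.8 and 35.0 CPM and MT1G 1 and 48 counts.

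Metabolic genes outside the respiratory chain changed at single steps. PINK1, the mitochondrial kinase studied in these lines, had 15.5 and 21.4 CPM in the LN pair and 14.3 and 79.1 in the 2B pair. Of 38 tricarboxylic acid cycle and glutamine genes 0 passed 2-fold, and of 31 fatty acid oxidation genes ACAA2 alone was lower with 320 and 127 counts. Of 27 fatty acid synthesis and storage genes 3 were lower and 0 higher. FADS2, the delta-6 desaturase, had 981 CPM in LNCaP and 367 in LN-OlapR but 789 and 1609 in the 2B pair. ELOVL6, a fatty acid elongase, had 68.1 and 14.6 CPM, and 8.80 and 31.0 in the 2B pair. Both lipid enzymes were thus lower in LN-OlapR than in its parent and higher in 2B-OlapR than in its own.

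SREBF1, the regulator of lipid synthesis, had 337 and 707 CPM, and NPC1, which exports cholesterol from lysosomes, had 95.3 and 201. HMGCS1, the first committed enzyme of the cholesterol pathway, was the lowest of its 28 genes with 123 and 63.2. The ratios of SREBF1 and NPC1 were both 0.99 on the log2 scale when scaled by total counts. PFKP, a phosphofructokinase, had 48.1 and 104 CPM, and ENO2 had 13.9 and 6.60. SLC16A3, a lactate exporter, had 32 and 114 counts in the LN pair against 7368 and 2876 in the 2B pair, which shows how far apart the backgrounds are at this gene. Of 191 solute carriers 11 were higher and 7 lower. SLC13A3, a dicarboxylate importer, had 23 and 294 counts, and SLC7A2, a cationic amino acid transporter, 50.4 and 11.0 CPM.

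Immune genes were few and mixed. Of 26 type I interferon-induced genes 2 were higher and 3 lower. HERC6 had 22.1 CPM in LNCaP and 2.62 in LN-OlapR, IFI44 had 76 and 4 counts, and RIGI, an RNA sensor, had 78 and 6. OAS3 was higher with 13.9 and 34.7 CPM, and IFI35 with 16 and 90 counts. STING1, the adaptor of cytosolic DNA sensing, had 8 and 59 counts, and 62 and 27 in the 2B pair. CD274, the checkpoint ligand PD-L1, had 64 and 12 counts, and HLA-F 28 and 57. TNFAIP2 was the 1 changed gene of 16 in the chemokine, cytokine and NF-kB list, with 89 and 374.

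Long noncoding RNAs of prostate cancer were higher in 6 of 20 analyzed (30.0%, beside 4.64%) and lower in 0. MALAT1, a nuclear RNA at positions 65497688 to 65506516 of chromosome 11, had 2670 and 9268 CPM in the LN pair and 1630 and 1895 in the 2B pair. TALAM1, its antisense partner, had 726, 2452, 487 and 595 CPM. The kit is stranded, but the strand setting of the counting is not given in the sources used here, so the pair cannot be told apart. NEAT1, the scaffold RNA of paraspeckles, had 239 and 757 CPM in the LN pair and 351 and 310 in the 2B pair. PCAT1 had 6.36 and 34.2 CPM, PVT1 had 43.6 and 92.2, and ARLNC1, an androgen-induced RNA, had 1 and 47 counts. LN-OlapR was the highest of the libraries for MALAT1, NEAT1, PCAT1 and PVT1.

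Of the most abundant genes, with mean levels from 100 CPM upwards and drawn up after the values were seen, 35 with a symbol were at least 2-fold higher and 17 lower. MCCC2, a subunit of the leucine-degrading methylcrotonyl-CoA carboxylase, had 153 and 993 CPM in the LN pair and 121 and 95.1 in the 2B pair. LCP1, the actin bundler L-plastin, had 61.3 and 413 CPM, MAP1B, a microtubule protein of neurons, had 152 and 792, and EEF1A2, an elongation factor isoform, had 462 and 1629. APP, the amyloid precursor, had 76.0 and 367 CPM, and MME, the peptidase neprilysin, 107 and 316. On the lower side, SOX4, a developmental transcription factor, had 267 and 72.0 CPM in the LN pair and 251 and 52.4 in the 2B pair. TMSB10, an actin-sequestering thymosin, had 215 and 86.1 beside 179 and 63.8. DSEL and ATP11A, with 233 and 60.1 CPM and 284 and 87.6 CPM, were low in the whole 2B pair. In the structural upkeep lists, 0 of 82 cytosolic ribosome genes and 0 of 78 mitochondrial ribosome genes passed 2-fold. The cytosolic list still leaned upward, with 70 genes above 0 and a median of 0.17 (interval 0.11 to 0.20). The mitochondrial list had a median of 0.04 (-0.02 to 0.11).

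The position of the genes was then considered, using GENCODE release 29 coordinates on GRCh38. Medians over runs of 25 neighbouring genes had a 1st percentile of -0.43 and a 99th percentile of 0.52 over 14279 runs. Of the 143 runs above the 99th percentile, 94 lay on chromosome 7, and of the 138 below the 1st, 54 lay on chromosome 7 and 26 on chromosome 2. Runs overlap, so these counts are not independent. Chromosome 7 had a median of 0.20 (interval over genes 0.15 to 0.26) over 702 genes, with 58 at least 2-fold higher and 30 lower. The other chromosomes had medians between -0.13 and 0.11.

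Along chromosome 7 the ratio changed from below 0 at the start of the short arm to above 0 on the long arm. In blocks whose limits were set after the values were seen, the first 10 Mb had a median of -0.49 over 73 genes, with 6 above 0. The block from 10 to 60 Mb had a median of -0.15 with 50 of 155 above 0, and that from 60 to 100 Mb one of 0.21 with 123 of 164 above 0. From 100 to 130 Mb the median was 0.48 with 133 of 151 genes above 0, and from 130 to 160 Mb it was 0.48 again with 138 of 159. The medians of the same blocks in the 2B pair, in this order, were 0.03, -0.07, -0.08, -0.22 and -0.13. The ordered change along the chromosome was seen in the LN pair and not in the 2B medians. DNA copy number was not measured here.

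The genes in these blocks took part to different degrees. In the run at positions 100889994 to 102642869 of chromosome 7, all 25 genes were above 0, with a median of 0.76. PLOD3, a lysyl hydroxylase of collagen, had 47.3 and 103 CPM there, and VGF, a neuropeptide precursor, 177 and 419 counts. GNB2, a G protein subunit in the run at 100088954 to 100694037, had 229 and 527 CPM. Near the start of the chromosome, in the run at 2558972 to 6272644, 24 of 25 genes were below 0 with a median of -0.69. FSCN1, the actin bundler fascin, had 30.4 and 6.04 CPM, CYTH3, an ARF exchange factor, 88.3 and 16.2, and SDK1, an adhesion molecule, 216 and 6 counts. AZGP1, PEG10 and CADPS2 on the higher side and MEST on the lower side also lie on chromosome 7, and their differences are many times the block medians.

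Other runs stood out on chromosomes 2, 5, 11 and X. On chromosome 2, from 129979664 to 131521573, 24 of 25 genes were below 0 with a median of -0.83, and 10 were at least 2-fold lower. CCDC74B had 317 counts in LNCaP and 15 in LN-OlapR, RAB6D, a RAB6 copy, had 334 and 42, and POTEI 231 and 21. CCDC74A, which was at 0 in LN-OlapR, begins at 131527675, just past this run. Many genes of this stretch have near-identical copies, and single values are uncertain. On chromosome 5, from 140698680 to 141512981, the run of clustered protocadherins had a median of 0.85, with 11 genes at least 2-fold higher and 2 lower. On chromosome 11, from 3854527 to 7677222, the median was -0.56, with TRIM68, an E3 ubiquitin ligase, at 60.2 and 25.9 CPM and ILK, the integrin-linked kinase that PARVA binds, at 65.8 and 31.4. On the X chromosome, from 49175264 to 52833899, 9 of 25 genes were at least 2-fold lower and the median was -0.53, and the run held PAGE1, the GAGE and XAGE1 copies and SSX2B. The 2B pair had medians of 0.12, 0.17, -0.10 and -0.16 over the same 4 runs. No level filter was applied to the 2B values of the runs. Many protocadherins had few counts there, such as PCDHB6 with 1 and 1 and PCDHGA7 with 0 and 3. The 0.17 of chromosome 5 is therefore uncertain.

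**Figure D5:**
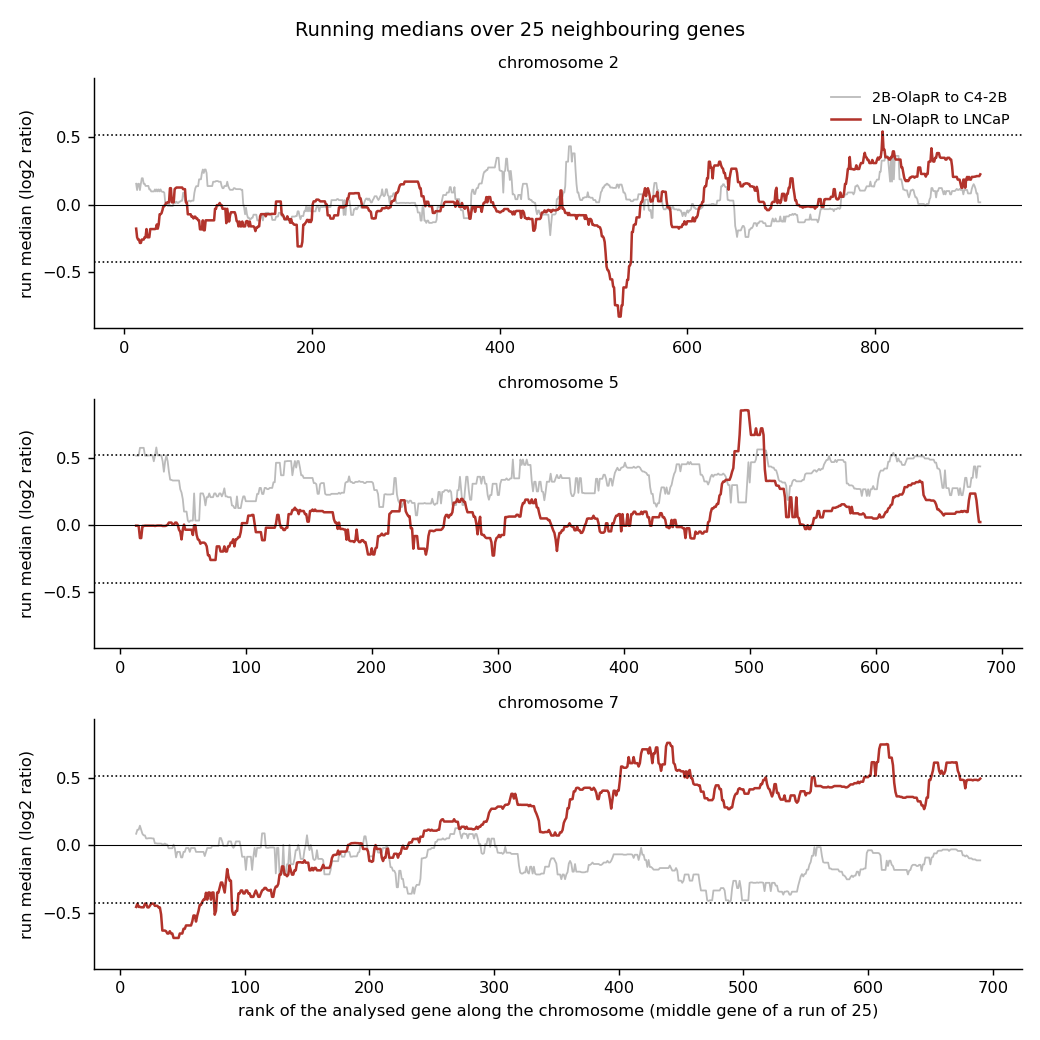
Running median of the log2 ratio over 25 neighbouring genes against the rank of the gene along chromosomes 2, 5 and 7, for LN-OlapR to LNCaP (red) and 2B-OlapR to C4-2B (grey), with dotted lines at the 1st and 99th percentiles of the LN pair (-0.43 and 0.52). The red line dips to -0.83 on chromosome 2, peaks at 0.85 on chromosome 5, and climbs along chromosome 7 from a lowest run of -0.69 to a highest of 0.76 while the grey line stays near or below 0.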

How the data were processed

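RNA was isolated from 4 prostate cancer lines, and stranded mRNA libraries were sequenced, 1 per line. The authors deposited estimated counts per gene, not scaled between libraries. The submitters' processing notes name STAR, Partek and GRCh38. The counting step, its strand setting and the annotation are not given in the sources used here. Of the values, 46.2% are not whole, and each of the 22637 genes sums to at least 10.0 over the libraries.

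Whole counts had been assumed, and the estimated counts were rounded. Library sizes were scaled by trimmed mean of M values (TMM) across the 4 libraries (edgeR 4.0.16, R 4.3.3), with factors from 0.961 to 1.03. Python 3.11.15 with numpy 2.4.6, pandas 2.3.3 and SciPy 1.17.1 computed log2 ratios with a pseudocount of 0.5 counts. Genes averaging 1 normalized CPM or more in the LN libraries were kept. Intervals at the 95% level come from the counts of the 2 libraries or, for a list, from order statistics of the median over its genes. They cover counting error or spread among genes, and not cultures. A count of 0 was set to 3 counts for a bound, and doing so left the medians of the 5 lists with such a gene as they were. Totals were 26394267 for LNCaP and 24278062 for LN-OlapR, where 3 counts are 0.112 and 0.129 CPM. With 1 library per line no model was fitted. The calculation was tested on simulated counts.

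The 66 gene lists and the members were chosen with earlier results of these data known, so counts and medians are descriptions, read against those of all genes. Columns left unused numbered 0. Named are the 15 highest and 15 lowest genes with a mean of at least 10 CPM, the extremes of each list and its 2-fold members from that mean upwards, cell type markers, genes seen in 1 library of the pair, 2-fold members of the runs, and PINK1, IGFBP3, EGFR and PARP1. Some genes that this rule names are not reported here. Other list members, the genes from 100 CPM upwards and the chromosome 7 blocks were chosen after their values were seen. Positions are from GENCODE release 29 and were found for 14867 genes. Promoters are from RefSeq. Alternatives were total counts, DESeq2 1.42.0 size factors, upper quartile factors, unrounded values, 2 counts as pseudocount, mean CPM cutoffs of 0.1 and 10, and runs of 50 genes.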

Additional observations from a re-analysis of the deposited data

Results flagged for a closer look

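For 5 lists the medians lay on opposite sides of 0 in the LN and the 2B pair, with both intervals over genes away from 0. As log2 ratios of resistant to parental line they were -0.12 and 0.17 for G2/M and mitosis, 0.29 and -0.38 for p53 target genes, 0.32 and -0.47 for the hypoxia response, 0.22 and -0.13 for glycolysis, and -0.12 and 0.39 for cholesterol synthesis and uptake. With 1 library per line the differences between pairs were not tested. For hypoxia, VEGFA had 63.0 and 99.3 CPM in the LN pair and 174 and 83.9 in the 2B pair.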

How the results depend on the processing

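No paired analysis was possible because each line has 1 library and the labels carry no replicate numbers, and for the same reason no replicate could be left out. The genes at least 2-fold higher in LN-OlapR numbered 713, and 2011 at a minimum mean of 0.1 CPM, 196 at 10 CPM and 404 where the whole counting interval had to pass 2-fold, and genes at least 2-fold lower in LN-OlapR numbered 742, and 1983, 192 and 412. Genes seen in 1 library of the pair, 15, were 6 with 0 counts required and 25 from 5 CPM. Leukocyte markers had 1 gene analyzed, CD68 at 3.59, and a median of -0.24 at a minimum of 0.1 CPM, where more members entered. Cadherins and protocadherins had a median of 0.06 at a minimum of 10 CPM, so their 0.80 rests on genes of low level. With runs of 50 genes the highest run median, 0.85, was 0.70 and the lowest, -0.83, was -0.58, and the lowest was -2.77 at a minimum mean of 0.1 CPM. Scaling by total counts moved the median of all genes by -0.084. Under it the medians were -0.03 for lysosome and autophagy, -0.05 for the mitochondrial ribosome, 0.09 for the cytosolic ribosome, 0.04 for solute carriers and -0.22 for zinc finger names, and chromosomes 1, 5 and X turned to -0.05, -0.03 and -0.04. Of 230 named genes past 2-fold, 18 fell under it with total counts and 0 with DESeq2 or upper quartile factors.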

Other observations

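A few further members of the lists were at least 2-fold higher in LN-OlapR. SLC39A8, a zinc importer, had 27.1 and 57.1 CPM in the LN pair and 149 and 259 in the 2B pair, and was higher in the resistant line of each pair. NNMT, which methylates nicotinamide, had 64 and 155 counts in the LN pair and 56 and 122 in the 2B pair. UCHL1, a ubiquitin hydrolase of neurons, had 32 and 126 counts, and 12 and 36 in the 2B pair. SLC16A6, a monocarboxylate transporter relative, had 16.2 and 38.1 CPM in the LN pair.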
